A study of Homo sapiens and Mus musculus with 74 samples.

Results

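The 10 genes followed here belong to the machinery that detects and resolves collided ribosomes: Zfp598, Edf1, Gigyf2, Ascc2, Ascc3, Pelo, Hbs1l, Nemf, Ltn1 and Tcf25. They were chosen by symbol, as 10 of the 22484 coding genes of the mouse transcript annotation, and each gene was read from the transcript that encodes its longest protein. The samples were kidney and brain from male C57BL/6J mice at 10 weeks of age, either WT (Rpl41+/+) or KO (Rpl41-/-), in which the whole Rpl41 coding sequence had been removed from the germline by Cas9 electroporation of zygotes. No allele or treatment other than the Rpl41 deletion is named for either genotype. The 30 libraries were RNA-seq (mRNA level) and Ribo-seq (ribosome-protected fragments, RPFs) from both tissues and disome-seq (fragments protected by adjoining ribosomes) from the kidney, with 3 WT and 3 KO samples for each tissue and assay. The labels do not say whether libraries of different assays came from the same animal.

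When a ribosome stops on an mRNA, the ribosome behind it runs into it, and the interface between both small subunits is the signal for quality control. ZNF598 (gene Zfp598), a ubiquitin ligase, and EDF1 bind this interface, and GIGYF2 is brought to the collision to block new initiation on that mRNA. The ubiquitin reader ASCC2 and the helicase ASCC3 belong to the complex that pulls the leading ribosome apart, while PELO and the GTPase HBS1L split ribosomes whose A site is empty. The freed large subunit still holds its peptide, which NEMF recognizes and extends, LTN1 marks with ubiquitin, and TCF25 helps to pass on for extraction and degradation. RPL41 itself is a very small, lysine- and arginine-rich ribosomal protein that, despite its name, is now counted with the small subunit.

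Long stretches of consecutive lysine and arginine codons are classic sites of ribosome slowing and collision. The longest runs of such codons in the mRNAs of these factors are short, 3 to 6 codons, beside a median of 3 over all coding genes. Whether runs of this length slow ribosomes was not tested. The longest run in each coding sequence is shown to let the factors be compared. Sequences are from GENCODE M21 transcripts (GRCm38), 5′ to 3′ on the coding strand, with the lysine and arginine codons in capitals and 4 codons of context on either side.
Tcf25: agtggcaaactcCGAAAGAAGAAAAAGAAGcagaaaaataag
Gigyf2: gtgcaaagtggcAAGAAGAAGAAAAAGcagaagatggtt
Zfp598: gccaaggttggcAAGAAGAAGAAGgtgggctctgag
Nemf: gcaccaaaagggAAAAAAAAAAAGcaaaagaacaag
Ascc2: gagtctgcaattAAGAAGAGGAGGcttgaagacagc
Pelo: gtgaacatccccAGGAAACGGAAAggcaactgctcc
Ltn1: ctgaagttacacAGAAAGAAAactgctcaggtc
Hbs1l: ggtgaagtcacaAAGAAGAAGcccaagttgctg
Ascc3: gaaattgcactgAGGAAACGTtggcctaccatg
Edf1: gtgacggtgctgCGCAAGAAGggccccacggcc

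Tcf25 held the longest run, 6 codons at codons 126 to 131, a length matched or passed by 2.05% of coding genes. Gigyf2 followed with 5 codons at 1254 to 1258 (5.77% of genes), Ascc2, Nemf, Pelo and Zfp598 had 4 (18.1%), and the other members had 3, as at least 53.7% of genes do. The Nemf run, at codons 439 to 442, consists of 3 AAA codons and 1 AAG, whereas the Zfp598 run, at 584 to 587, is AAG throughout. Gigyf2 also encodes 11 glutamines in a row at codons 1018 to 1028, which 0.294% of coding genes match. That stretch, a landmark of the protein, is printed with its glutamine codons in capitals.
Gigyf2 glutamine run: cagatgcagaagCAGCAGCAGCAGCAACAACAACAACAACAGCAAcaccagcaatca

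The 10 proteins were longer than is usual, with a median of 828.5 amino acids against 381 over all coding genes. They ranged from the 148 residues of EDF1 to the 2198 of ASCC3, with LTN1 (1767), GIGYF2 (1291) and NEMF (1064) next to ASCC3.

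On GRCm38, the transcripts lay on separate loci. Ascc3 lies on chromosome 10 from 50592669 to 50851485 (plus strand, 42 exons), Hbs1l on chromosome 10 from 21296033 to 21368883 (plus, 18 exons) and Ltn1 on chromosome 16 from 87376651 to 87432612 (minus, 30 exons). Gigyf2 lies on chromosome 1 from 87327003 to 87450796 (plus, 29 exons), Nemf on chromosome 12 from 69310522 to 69357165 (minus, 33 exons) and Zfp598 on chromosome 17 from 24669687 to 24682016 (plus, 12 exons). Ascc2 lies on chromosome 11 from 4637747 to 4683385 (plus, 20 exons), Tcf25 on chromosome 8 from 123373824 to 123401892 (plus, 18 exons), Pelo on chromosome 13 from 115088355 to 115090186 (minus, 2 exons) and Edf1 on chromosome 2 from 25557847 to 25562082 (plus, 5 exons). Among these loci, 3 share exonic bases with a neighbour. Pelo sits inside Itga1 and shares 739 exonic nucleotides with the same-strand gene Gm49395 and 468 with the antisense gene Gm10734, Hbs1l shares 266 with the antisense gene 4930455C13Rik, and Nemf shares 166 with Klhdc2 on the opposite strand. The strand setting of the counting is not given in the sources used here, so counts of Pelo, Hbs1l and Nemf may include reads of these partners.

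The targeted gene was read first. Rpl41 had 37 to 12199 reads in the WT libraries and 0 to 12 in the KO libraries. Kidney markers such as Umod summed to 3324 to 3920 CPM (counts per 1000000, scaled between libraries) in RNA-seq of the kidney and 3.09 to 4.67 CPM in that of the brain, and brain markers such as Snap25 to 8.15 to 10.1 and 2035 to 2668 CPM. Total counts ran from 44998381 to 55077048 for RNA-seq of the kidney and 84433838 to 123745890 for that of the brain, from 11036643 to 42452425 for Ribo-seq of the kidney and 9498663 to 35881929 for that of the brain, and from 1187636 to 3018963 for disome-seq. The members had 66 to 1845 reads each in kidney Ribo-seq but only 5 to 185 in disome-seq. These are bulk tissue samples, in which fewer cells of a type and less RNA per cell cannot be told apart.

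The first question was whether loss of RPL41 changed the RPFs of the factors that handle collisions. In human cells, not analysed here, the study found no significant collective decrease in RPFs for a set of quality control genes. It also found no significant collective shift in their translation efficiency. As the study states, higher RPFs can reflect a longer stay of ribosomes rather than more protein made. RPF counts do not tell these apart. In the kidney, RPFs of Gigyf2, Ltn1 and Ascc3 rose in KO, by log2 fold changes of 0.60, 0.52 and 0.42, and those of no member fell. Thus 3 of 10 members passed the test (edgeR's quasi-likelihood F-test, Benjamini-Hochberg adjusted p under 0.05), all 3 upward, against 7.76% of all 75266 transcripts tested, 4.75% upward and 3.01% downward. The median change over the 10 members was 0.07, beside -0.01 over all transcripts and -0.02 over coding genes.

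Gigyf2, the translational repressor, had 17.8, 19.1 and 18.6 CPM in WT kidney replicates 1 to 3 and 23.5, 28.6 and 31.0 CPM in KO replicates 1 to 3. The groups did not overlap, and KO replicate 1 was the lowest of the KO libraries. How many of all transcripts split by genotype in this way was not counted. Here and below, a lack of overlap only describes a gene. The log2 fold change was 0.60 (SE 0.12, adjusted p = 0.0131).

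Ltn1, the ubiquitin ligase for stalled nascent chains, had 31.0, 30.3 and 32.9 CPM in WT and 44.8, 43.0 and 46.9 CPM in KO. Both groups were tight and well apart. The log2 fold change was 0.52 (SE 0.10, adjusted p = 0.0132).

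Ascc3, the helicase, had 13.3, 13.4 and 12.2 CPM in WT and 15.5, 17.0 and 19.2 CPM in KO. The groups again did not overlap, and the log2 fold change was 0.42 (SE 0.11, adjusted p = 0.0386). Nemf, the partner of LTN1 on the large subunit, had 14.4, 15.7 and 15.5 CPM in WT and 17.1, 19.6 and 22.5 CPM in KO. Its groups did not overlap either, but its log2 fold change of 0.40 (SE 0.12) had an adjusted p of 0.0541.

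The other 6 members had smaller differences, none of which passed the test. The collision sensors Zfp598 and Edf1 had log2 fold changes of -0.14 (SE 0.14) and -0.17 (SE 0.11), the splitting factors Pelo and Hbs1l -0.11 (SE 0.13) and -0.18 (SE 0.13), Tcf25 -0.03 (SE 0.10) and the ubiquitin reader Ascc2 0.18 (SE 0.11). For all 6 the WT and KO libraries overlapped. The adjusted p-values ran from 0.338 for Edf1 to 0.866 for Tcf25.

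**Figure D1:**
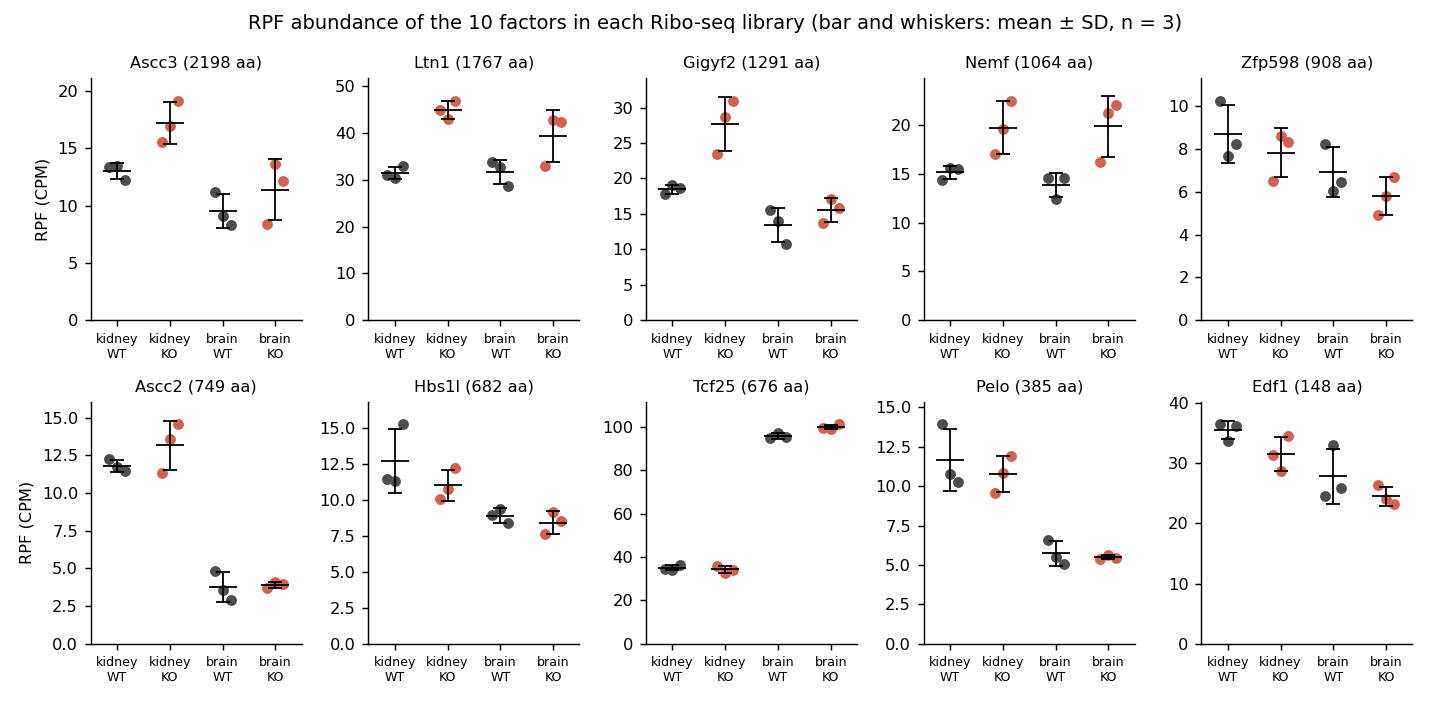
RPF abundance (CPM, axes from 0) of each factor in the 12 Ribo-seq libraries, with 1 point per library in replicate order, a bar at the mean and whiskers of 1 SD (n = 3). Ascc3, Ltn1, Gigyf2 and Nemf have KO kidney libraries that all lie above the WT kidney libraries, and Tcf25 stands at 32.7 to 36.3 CPM in kidney against 94.8 to 101 CPM in brain, each tissue scaled on its own.

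The calls depended on single libraries, although the folds moved little. With any 1 library left out, the log2 fold change stayed between 0.51 and 0.70 for Gigyf2, 0.48 and 0.55 for Ltn1, 0.33 and 0.48 for Ascc3 and 0.29 and 0.48 for Nemf. Without KO replicate 2 or KO replicate 3, the most deeply sequenced libraries (42452425 and 39384669 counts, against 11036643 in KO replicate 1), 0 members passed, with adjusted p-values of 0.0623 and 0.0844 for Ltn1 and 0.0739 and 0.0826 for Gigyf2. Without WT replicate 1 only Ltn1 did (adjusted p = 0.0468), without WT replicate 2 or 3 Ascc3 was lost (adjusted p = 0.0738 and 0.0566), and without KO replicate 1 all of Gigyf2, Ltn1, Ascc3 and Nemf passed (0.0329 for Nemf). Some cell type markers moved with genotype in the same libraries. The summed level of 5 immune markers was 75.4 to 109 CPM in WT and 132 to 153 CPM in KO kidney Ribo-seq, with 2 of 5 higher in every KO library, and that of 5 pancreatic acinar markers was 11.2 to 115 CPM in WT and 3.85 to 7.63 CPM in KO, with 4 of 5 lower in every KO library. Of the 6 kidney markers, 3 were higher and 1 was lower in every KO library, and their sum was 2406 to 2839 CPM in WT and 2739 to 3838 CPM in KO. None of these markers was at 0 in every library, and their part in the result was not tested.

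Other genes of the pathway were called in both directions, about as often as genes in general. Of 28 further genes for sensing, ubiquitylation, rescue and peptide release, 3 passed the test in kidney RPF. Beside this count stand 7.76% of all 75266 transcripts tested and 9.88% of coding genes. Gcn1, which binds collided ribosomes and activates the kinase GCN2, rose by a log2 fold change of 0.59 (SE 0.10, adjusted p = 0.00955). Rnf10, a ubiquitin ligase for small-subunit proteins, had a log2 fold change of -0.50 (SE 0.13, adjusted p = 0.0373), and Rnf14, a ligase that clears factors trapped in the A site, -0.39 (SE 0.11, adjusted p = 0.0472). The median over the 28 was -0.07.

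In the brain, 0 of 10 members passed the RPF test, as did 0.0345% of 81112 transcripts. In edgeR 2 members and 12.6% of all transcripts had an unadjusted p under 0.05. Limma voom called 0 members, and DESeq2 called 0 of the 5 to which it gave an adjusted p, Nemf and Ltn1 among them. Nemf had 14.6, 12.4 and 14.6 CPM in WT and 16.3, 21.3 and 22.1 CPM in KO brain, so that its groups did not overlap (log2 fold change 0.51, SE 0.13, adjusted p = 0.225). Ltn1 had 33.7, 32.6 and 28.6 CPM in WT and 33.0, 42.8 and 42.3 CPM in KO, and its KO replicate 1 lay within the WT range (log2 fold change 0.32, SE 0.12, adjusted p = 0.327). The next values were 0.27 for Ascc3 (SE 0.18) and 0.22 for Gigyf2 (SE 0.15), and the lowest was -0.27 for Zfp598 (SE 0.16). In these libraries 4 of 5 blood markers were lower in every KO sample, with sums of 636 to 1841 CPM in WT and 346 to 443 CPM in KO, and their part in these values was not tested.

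The difference between the tissues was tested as the kidney change minus the brain change. It passed for 0 of 10 members, beside 0.0767% of 88666 transcripts, with 0 members at an unadjusted p under 0.05 and 0 called by DESeq2 or limma voom. The largest difference was that of Gigyf2, at 0.36 (SE 0.19, adjusted p = 0.703).

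The same 4 members held the highest RPF changes in both tissues, and they are the 4 with the longest proteins. From Nemf upward in protein length the log2 fold changes were 0.40 to 0.60 in kidney and 0.22 to 0.51 in brain, and for the 6 shorter members -0.18 to 0.18 and -0.27 to 0.06. Coding genes in general showed a shift of the same sign, and the study reported higher RPFs for transcripts of the longest proteins in both tissues. The 1678 tested genes whose proteins are at least as long as NEMF had a median of 0.23 in kidney, with 22.4% called upward, and the 11776 shorter ones a median of -0.05, with 3.63% called upward. In brain the medians were 0.10 over 1870 genes and -0.04 over 12595. The boundary at NEMF was set after the values were seen, so these figures describe the members and do not test them.

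**Figure D2:**
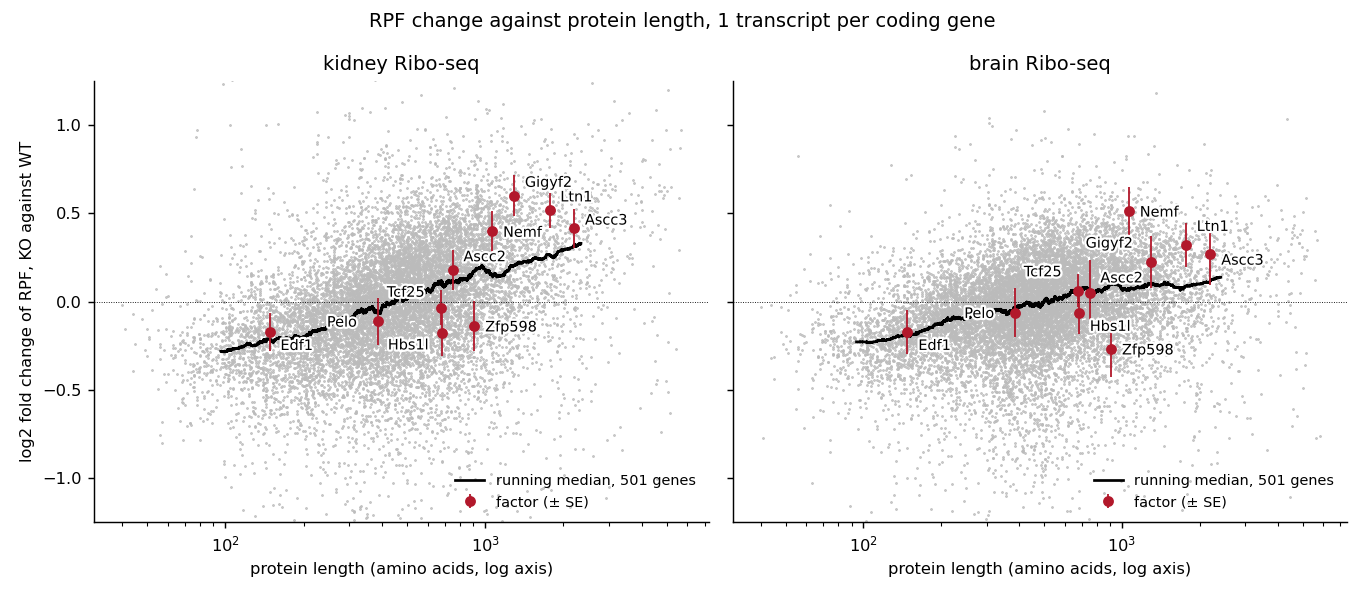
Log2 fold change of RPFs in KO against protein length (log axis) for the factors (red, ± SE) over all tested coding genes, 1 transcript each (grey, points beyond the axis not shown), with a running median of neighbouring genes. Gigyf2, Ltn1, Ascc3 and Nemf lie above the running median in both tissues, while Zfp598 lies below it with log2 fold changes of -0.14 in kidney and -0.27 in brain.

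The second question was whether the mRNAs had changed. In kidney RNA-seq 0 of 10 members passed edgeR's test, as did 0.00992% of 70545 transcripts. Nemf alone among them had an unadjusted p under 0.05 in edgeR, beside 16.8% of all transcripts. DESeq2 called 0 members and limma voom with quality weights called 4 (Nemf, Ascc2, Edf1 and Hbs1l, all upward). Over all transcripts the calls reached 29361 among the alternative settings, beside 70545 transcripts tested in edgeR. The share called by edgeR is thus no background for these 4, and their count does not set the members apart. The median over the members was 0.22, beside -0.03 over all transcripts and 0.10 over coding genes.

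Nemf mRNA had 27.3, 30.0 and 20.5 CPM in WT kidney and 27.2, 52.5 and 47.0 CPM in KO. KO replicate 1 sat among the WT libraries and the other two KO libraries lay far above them (log2 fold change 0.70, SE 0.26, adjusted p = 0.292). Ascc2 mRNA showed the same picture, with 8.00, 10.6 and 7.64 CPM in WT and 8.11, 16.0 and 12.6 CPM in KO (log2 fold change 0.48, SE 0.26, adjusted p = 0.342). Without KO replicate 1, Nemf rose by 0.94 (adjusted p = 0.0183) and Ascc2 by 0.71 (adjusted p = 0.0474), along with 12466 called transcripts in all. KO replicates 2 and 3 also stood apart in their share of mitochondrial rRNA, 1.76% and 1.67% of counts against 0.436% to 0.962% in the other kidney RNA-seq libraries, and the part of this in the result was not tested.

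Edf1 mRNA had 59.9, 68.1 and 46.2 CPM in WT and 71.7, 74.4 and 79.0 CPM in KO kidney. All KO libraries were above all WT libraries, yet the log2 fold change of 0.37 (SE 0.17) had an adjusted p of 0.300. The groups of Pelo and Ltn1 did not overlap either. Ltn1 mRNA had 12.8, 11.2 and 13.3 CPM in WT and 14.1, 15.9 and 13.4 CPM in KO, with its lowest KO library just above its highest WT library. The mRNAs of Gigyf2, Ltn1 and Ascc3, whose RPFs rose, had log2 fold changes of 0.16 (SE 0.16), 0.22 (SE 0.15) and 0.07 (SE 0.21). Scaling by library size alone moved the median of all transcripts from -0.03 to -0.19 in this comparison.

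In brain RNA-seq 0 of 10 members passed, beside 0.0134% of 89237 transcripts, with 0 members at an unadjusted p under 0.05 and 0 called by DESeq2 or limma voom. Nemf mRNA had 39.9, 37.4 and 32.0 CPM in WT and 36.3, 53.4 and 51.8 CPM in KO, again with KO replicate 1 inside the WT range (log2 fold change 0.37, SE 0.17, adjusted p = 0.898). Mitochondrial rRNA made up 0.689%, 0.488% and 0.381% of counts in these WT libraries and 0.380%, 0.618% and 0.611% in these KO libraries. Its part in the Nemf values was not tested. Zfp598 mRNA had 17.4, 14.8 and 16.7 CPM in WT and 11.6, 14.2 and 14.2 CPM in KO, and was the only member whose brain KO libraries all lay below the WT libraries (log2 fold change -0.29, SE 0.13, adjusted p = 0.898). The kidney mRNA change minus the brain change passed for 0 of 10 members, beside 0.00108% of 92865 transcripts, and 0 had an unadjusted p under 0.05. DESeq2 called 0 members and limma voom called Ascc2 (0.81, adjusted p = 0.0286, where edgeR gave 0.69, SE 0.33, adjusted p = 0.585). Over all transcripts the calls for this difference reached 14554 among the alternative settings.

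TE, the RPF change relative to the mRNA change, was tested with an interaction term between genotype and assay. In kidney 0 of 10 members passed, as 0% of 89685 transcripts did. The study itself, using RiboDiff, reported significant TE changes for many transcripts in kidney and in brain. The 0% thus belongs to the test used here, which recovered 2% of simulated log2 changes of 1 in kidney TE. In edgeR 1 member (Edf1) and 16939 transcripts (18.9%) had an unadjusted p under 0.05. Over all transcripts the calls reached 26780 among the alternative settings, so a count of members under such a setting does not set them apart. DESeq2 called 0 members and limma voom 3, namely Edf1 (-0.53, adjusted p = 0.0159), Gigyf2 (0.48, adjusted p = 0.0351) and Ltn1 (0.41, adjusted p = 0.0292). In edgeR these had TE changes of -0.54 (SE 0.22, adjusted p = 0.220), 0.43 (SE 0.21, adjusted p = 0.292) and 0.29 (SE 0.17, adjusted p = 0.351).

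For Edf1 the mRNA and RPF values differed in sign, 0.37 (SE 0.17) against -0.17 (SE 0.11). The splitting factors lay on the same side as Edf1, with TE changes of -0.41 (SE 0.25) for Hbs1l and -0.35 (SE 0.22) for Pelo. The members' median was -0.17, against 0.07 over all transcripts and -0.13 over coding genes.

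In brain TE 0 of 10 members passed, as 0% of 98861 transcripts did. Ltn1 alone had an unadjusted p under 0.05 in edgeR, beside 4677 transcripts, and DESeq2 and limma voom called 0 members. Ltn1 had a TE change of 0.46 (SE 0.19, adjusted p = 0.895), Gigyf2 0.38 (SE 0.21) and Edf1 -0.40 (SE 0.24). Values of opposite sign were found for Ascc2 (-0.31 in kidney and 0.35 in brain), Nemf (-0.31 and 0.18) and Zfp598 (-0.03 and 0.06). A change smaller than its SE was taken to have no direction. Beyond their SE were 3 members upward and 4 downward in kidney, and 4 and 2 in brain. Whether TE changes differed between the tissues was not tested.

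**Figure D3:**
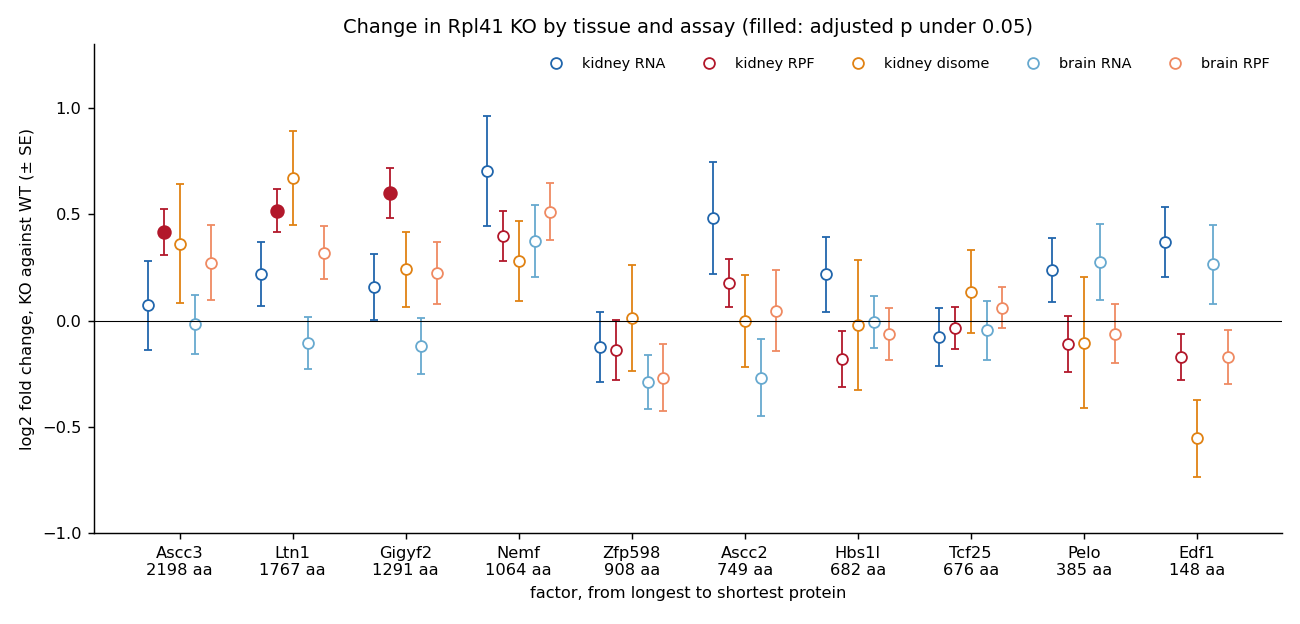
Log2 fold change (± SE) of each factor in KO against WT, by tissue and assay, ordered from the longest to the shortest protein. Filled points pass an adjusted p of 0.05, which only the kidney RPFs of Ascc3 (0.42), Ltn1 (0.52) and Gigyf2 (0.60) do.

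Disome-seq addressed whether more stacked ribosomes were found on these mRNAs in KO kidney. Again 0 of 10 members passed, beside 0.201% of 34754 transcripts. Ltn1 and Edf1 had an unadjusted p under 0.05 in edgeR, beside 10.8% of all transcripts, and limma voom called 0 members. DESeq2 gave an adjusted p to 0 of the 10 members here, so it could call none. Ltn1 had 18.7, 18.0 and 14.5 CPM of disome fragments in WT and 28.8, 22.5 and 34.1 CPM in KO (log2 fold change 0.67, SE 0.22, adjusted p = 0.226). Edf1 had 64.0, 54.4 and 74.3 CPM in WT and 47.8, 37.2 and 43.9 CPM in KO (log2 fold change -0.55, SE 0.18, adjusted p = 0.228). Both genes were split cleanly by genotype, in opposite directions, on 16 to 62 reads a library for Ltn1 and 45 to 185 for Edf1. Gigyf2 and Nemf also had all KO libraries above all WT libraries, with log2 fold changes of 0.24 (SE 0.18) and 0.28 (SE 0.19). For Gigyf2 the split was negligible, with 48.6 CPM in the highest WT library and 48.7 CPM in the lowest KO library. In the disome libraries the immune markers summed to 44.9 to 66.0 CPM in WT and 70.5 to 104 CPM in KO, and 4 of 5 blood markers were lower in every KO library, with sums of 288 to 322 CPM in WT and 160 to 231 CPM in KO. Of the 6 kidney markers, 2 were higher and 1 was lower in every KO library. Their part in these values was not tested.

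Set against RPFs of the same genes, the disome change differed from the RPF change for 0 of 10 members, beside 0% of 67065 transcripts. In edgeR 0 members and 3916 transcripts had an unadjusted p under 0.05, and DESeq2 and limma voom called 0 members. For Ltn1 the disome change exceeded the RPF change by 0.18 (SE 0.22), and for Gigyf2 it fell short by -0.33 (SE 0.20). Edf1 had -0.34 (SE 0.20).

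Of the 28 further genes, 0 passed edgeR's test in kidney RNA, brain RNA, brain RPF, kidney disomes, either TE comparison, disome against RPF, or either tissue difference. At an unadjusted p under 0.05 there were 4, 2, 6, 3, 7 (kidney TE), 3 (brain TE), 3, 2 (RNA) and 3 (RPF). In the same order, 16.8%, 3.46%, 12.6%, 10.8%, 18.9%, 4.73%, 5.84%, 8.47% and 7.63% of all transcripts had such a p. DESeq2 called 3 of the 28 in kidney TE and 1 in brain RPF. Limma voom called 10 in kidney RNA, 8 in kidney TE and 2 in the RNA tissue difference, with 0 by both tools elsewhere. Over all transcripts the calls in kidney RNA, kidney TE and that difference reached 29361, 26780 and 14554 among the alternative settings. The counts of limma voom thus do not set the 28 apart. DESeq2 gave an adjusted p to only 12 of the 28 in brain RPF and 1 in kidney disomes.

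The members' own levels were compared per kilobase, over the transcript for RNA and over the coding sequence for RPFs. In WT kidney, Edf1 mRNA was by far the most abundant at 93.2 ± 20.7 CPM per kb (SD, n = 3), followed by Tcf25 (15.5 ± 1.1), Hbs1l (12.2 ± 1.8), Pelo (7.44 ± 0.98), Nemf (6.35 ± 1.40) and Zfp598 (5.89 ± 1.21). Then came Gigyf2 (3.85 ± 0.50), Ascc2 (3.82 ± 0.82), Ltn1 (1.85 ± 0.12) and, at the bottom, Ascc3 (0.749 ± 0.115). Nemf overlapped with Pelo above it and Zfp598 below it in this order, as did Gigyf2 with Ascc2. At the other steps, Zfp598 to Gigyf2 among them, the replicate ranges did not overlap.

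At the level of RPFs the order began and ended alike, from Edf1 at 84.5 ± 3.6 and Tcf25 at 18.3 ± 0.6 CPM per kb to Ascc3 at 2.08 ± 0.11. Ltn1 took the fifth place with 6.27 ± 0.27, after Pelo (10.7 ± 1.8) and Hbs1l (6.58 ± 1.15), whereas its mRNA was the ninth. In brain, Edf1 and Tcf25 again led the RPFs, with 61.1 ± 8.5 and 46.2 ± 1.0 CPM per kb, and Ascc3 was last with 1.41 ± 0.22. From Hbs1l (4.26 ± 0.11) down to Ascc3 each brain neighbour overlapped with the next.

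Most of the machinery was more abundant in WT kidney than in WT brain. In RNA-seq 7 of 10 members differed, 6 higher in kidney and 1 in brain, where 64.1% of 88731 transcripts were called, 28.3% higher in kidney and 35.8% in brain. The members' median was 0.81 in favour of kidney, beside -0.20 over all transcripts and 0.10 over coding genes. Scaling by library size alone moved the median of all transcripts from -0.20 to -0.45.

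Pelo mRNA had 12.7, 12.9 and 10.1 CPM in kidney and 3.74, 3.52 and 3.04 CPM in brain, when both tissues were scaled together (log2 ratio 1.79, SE 0.19, adjusted p = 1.39e-05). Ascc2 mRNA had 9.34, 12.6 and 8.46 CPM in kidney and 3.42, 2.52 and 3.60 CPM in brain (1.67, SE 0.23, adjusted p = 9.71e-05). The tissue ranges were far apart for both genes. Hbs1l (1.19), Edf1 (0.99), Gigyf2 (0.85) and Ascc3 (0.77) were also higher in kidney, whereas Ltn1 (0.15, SE 0.16), Nemf (-0.19, SE 0.19) and Zfp598 (0.36, SE 0.18) did not pass the test. Without kidney RNA-seq replicate 3, Zfp598 did (0.47, adjusted p = 0.0283).

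Tcf25, which acts with NEMF and LTN1 on the released large subunit, was the exception. Its mRNA had 42.6, 39.4 and 45.6 CPM in kidney and 66.7, 70.3 and 82.7 CPM in brain (log2 ratio -0.78, SE 0.16, adjusted p = 0.00145), and its RPFs 36.7, 36.2 and 38.4 CPM against 92.7, 92.4 and 96.1 CPM (-1.34, SE 0.12, adjusted p = 2.03e-07). Brain thus had the higher level of Tcf25 in both assays with no overlap.

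At the level of RPFs 8 of 10 members differed between the tissues, 7 higher in kidney and 1 in brain, beside 70.9% of 82957 transcripts, 35.0% higher in kidney and 35.8% in brain. Their median was 0.52, beside 0.01 over all transcripts and 0.02 over coding genes. Ascc2 RPFs, at 12.9, 12.4 and 12.1 CPM in kidney and 4.73, 3.38 and 2.94 CPM in brain, showed the largest difference (1.75, SE 0.18, adjusted p = 7.80e-07). Pelo followed with 1.14 (SE 0.17), then Hbs1l (0.62), Gigyf2 (0.58), Ascc3 (0.56), Edf1 (0.48) and Zfp598 (0.44, SE 0.17, adjusted p = 0.0330). The Zfp598 call was lost without brain replicate 2 (0.35, adjusted p = 0.105) or 3 (0.39, adjusted p = 0.0987) and without kidney replicate 1 (0.30, adjusted p = 0.173). For Nemf and Ltn1 the log2 ratios of 0.23 (SE 0.13) and 0.10 (SE 0.12) did not pass the test.

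**Figure D4:**
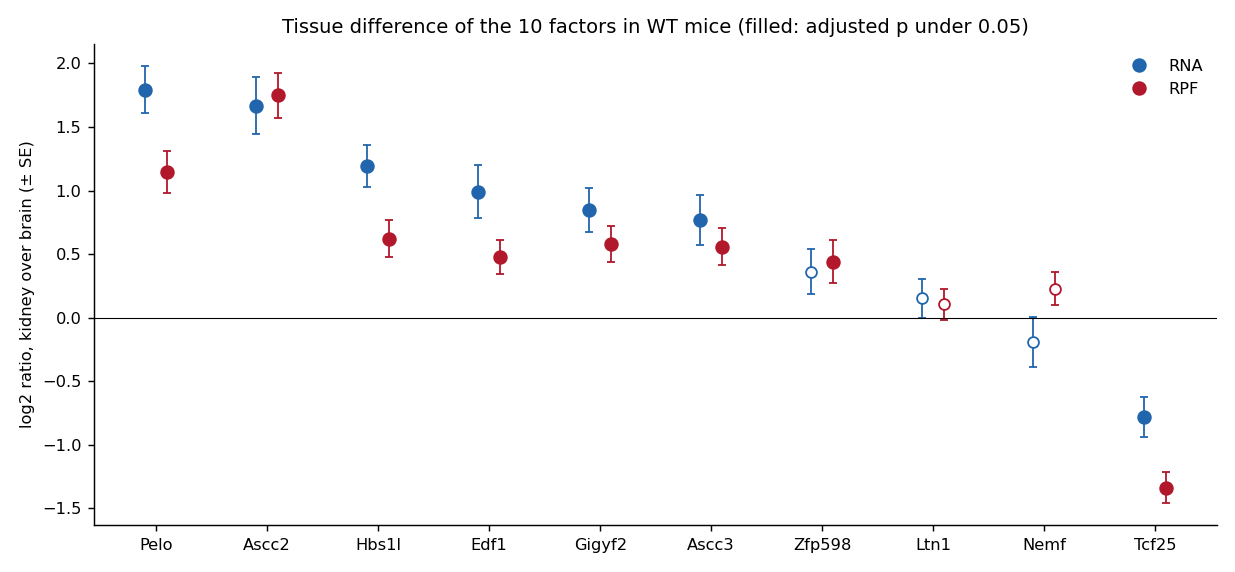
Log2 ratio of kidney over brain (± SE) in WT mice for mRNA and RPFs of each factor, with filled points where the adjusted p is under 0.05. Pelo and Ascc2 are highest in kidney, at 1.79 and 1.67 in mRNA, and Tcf25 is the factor higher in brain, at -0.78 in mRNA and -1.34 in RPFs.

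Of the 28 further genes, 18 differed between WT tissues in RNA, 17 higher in kidney, and 17 in RPFs, 15 higher in kidney. Over all transcripts 64.1% differed in RNA, 28.3% higher in kidney, and 70.9% in RPFs, 35% higher in kidney. The number called was thus not above that of transcripts in general. The largest kidney excess in RNA was that of Ascc1 (2.83, SE 0.19), another subunit of the complex of ASCC2 and ASCC3, and of the collision-activated kinase Map3k20 (2.81, SE 0.34), followed by the small-subunit protein gene Rack1 (2.08, SE 0.23) and Ddrgk1 (1.98, SE 0.18), part of the UFM1 ligase complex. In RPFs Ascc1 led again (2.17, SE 0.16), before Cdk5rap3 (1.52, SE 0.13), N4bp2 (1.37, SE 0.19) and G3bp1 (1.26, SE 0.14). Rnf14 was higher in brain in both assays, with log2 ratios of -1.10 (SE 0.16) in RNA and -1.80 (SE 0.13) in RPFs, and the kinase gene Eif2ak4 in RPFs alone (-0.56, SE 0.19).

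The last comparison asked which of these mRNAs hold more stacked ribosomes than their RPFs account for in WT kidney. Disome and RPF libraries were scaled together, and the difference in share was tested for each transcript. It passed for 6 of 10 members, 5 higher and 1 lower in disomes, beside 50.7% of 64608 transcripts, 25.3% in each direction. The members' median was 0.52, beside -0.04 over all transcripts and -0.16 over coding genes. Mitochondrial rRNA made up 2.53% to 5.41% of counts in the WT disome libraries and 0.357% to 0.538% in the WT kidney Ribo-seq libraries. Its part in these values was not tested.

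Gigyf2 had the largest disome excess, with 17.8, 19.0 and 18.4 CPM in Ribo-seq and 39.4, 48.7 and 44.3 CPM in disome-seq (log2 ratio 1.26, SE 0.14, adjusted p = 2.35e-06). Nemf had 14.4, 15.5 and 15.3 CPM against 31.1, 32.7 and 28.4 CPM (1.04, SE 0.14, adjusted p = 1.82e-05). In both the disome share was higher in every library. The longest printed runs are 5 codons in Gigyf2 and 4 in Nemf. Ascc2 and Zfp598, with 4, and Edf1, with 3, also passed upward, while Ltn1, with 3, passed downward (below). Pelo, with 4, and Ascc3 and Hbs1l, with 3, did not pass here. Whether run length goes with disome share was not tested. Tcf25, with the longest run, had a log2 ratio of 0.11 (SE 0.14, adjusted p = 0.542) in the transcript read here. With counts summed per gene Tcf25 did pass, as given under the dependence on processing. Counts per transcript do not hold the place of a disome, so its distance from a run was not tested.

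Edf1 (0.83, SE 0.14), Ascc2 (0.78, SE 0.16) and Zfp598 (0.76, SE 0.21) were also higher in disomes. The Zfp598 call was lost without disome replicate 2 (0.65, adjusted p = 0.0563). Ltn1 went the other way, with 31.1, 30.1 and 32.6 CPM in Ribo-seq and 18.7, 18.0 and 14.2 CPM in disome-seq (-0.84, SE 0.16, adjusted p = 3.55e-04). Pelo had -0.52 (SE 0.22, adjusted p = 0.0588), which passed with the replicate number as a block (-0.54, adjusted p = 0.0225) and without Ribo-seq replicate 3 (-0.60, adjusted p = 0.0262). Ascc3 and Hbs1l, on 12 to 65 and 5 to 44 disome reads a library in WT, had 0.28 (SE 0.22) and -0.10 (SE 0.24), neither of which passed the test.

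**Figure D5:**
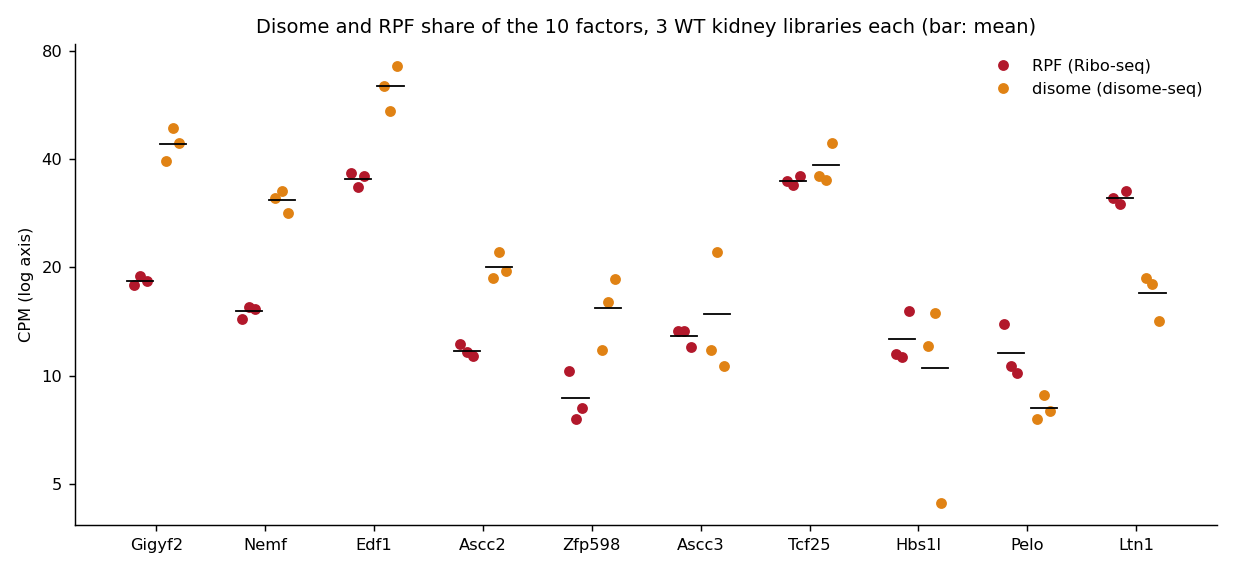
CPM of each factor in 3 WT kidney Ribo-seq and 3 WT kidney disome-seq libraries (log axis, 1 point per library, bar at the mean), ordered by the log2 ratio of disome to RPF. The disome points of Gigyf2 (39.4 to 48.7 CPM) and Nemf (28.4 to 32.7 CPM) lie above their RPF points, and those of Ltn1 (14.2 to 18.7 CPM) below.

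Of the 28 further genes 27 could be tested here, and 12 passed, 6 in each direction, beside 50.7% of all transcripts, 25.3% in each direction. Ankzf1, which cuts the stalled peptide from its tRNA, had the largest disome excess (2.58, SE 0.19), before the rescue GTPase gene Gtpbp2 (1.81, SE 0.23), Otud3 (1.22, SE 0.34) and Eif2ak4 (1.17, SE 0.23). Rchy1 (-1.40, SE 0.22), the deubiquitinase gene Usp10 (-1.33, SE 0.18), Ddrgk1 (-0.87, SE 0.17) and Klhdc10 (-0.57, SE 0.17) were the furthest below their RPF share.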

How the data were processed

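The 10 members and all other lists were chosen with earlier results of these data known. The authors digested lysates with RNase I, depleted rRNA, trimmed reads with cutadapt and FASTX, aligned them with STAR (mouse transcriptome, GRCm38) with multimapping reads allowed and counted them with featureCounts. They deposited raw read counts for 142604 transcripts. Isoforms share reads. Of these transcripts, 141374 matched GENCODE M21 by identifier. Tool versions and the strand setting are not given in the sources used here. The table of human transcripts has 28 columns named for mouse samples and was not used, so the 44 HEK293T samples were not analysed here.

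KO was compared with WT by the quasi-likelihood F-test of edgeR 4.0.16 (R 4.3.3) after filterByExpr and TMM scaling, fitted over all transcripts per tissue and per assay. P-values were adjusted by Benjamini-Hochberg and called under 0.05. The standard error was the fold change divided by the square root of F. The study used RiboDiff for TE, which was not installed here. All members and each further gene called are named, or the 4 with the largest fold where more than 4 were called in 1 direction. Levels are CPM, scaled by TMM within each comparison. The study calls its replicates biological, and the labels name no animals. Alternatives were DESeq2 1.42.0, limma voom with quality weights (limma 3.58.1), library size alone, other filters, counts summed per gene, 1 transcript per gene, replicate and assay blocks, and each library left out. Same-numbered libraries deviated together in WT RNA of both tissues (r = 0.123 to 0.424 over 3 pairs) and in WT kidney disomes and RPFs (r = 0.111 to 0.169). These met the rule used for pairing (every r over 0.1). Same-numbered KO and WT libraries had r = -0.280 to 0.421 in kidney RNA, so such values do not show a shared animal. The tests as reported used no block. The scripts were tested on simulated counts, with 100 changed transcripts per size of change. A log2 change of 1 was recovered for 88% in kidney RPF, 7% in kidney RNA, 2% in kidney TE and 15% in disome relative to RPF. For a log2 change of 3 the values were 100%, 91%, 79% and 91%. A count of 0 members called in RNA, TE or disome relative to RPF thus does not show unchanged levels.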

Additional observations from a re-analysis of the deposited data

How the results depend on the processing

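Among 13 comparisons no fold change of a member turned its direction past the threshold under any alternative run. The count of members called changed as follows. In kidney RPF it was 3, and 0 to 4 with 1 library left out, 2 under DESeq2, library size alone, counts summed per gene or the replicate block (Ascc3 lost, adjusted p = 0.0667 with the block), and 4 without the filter or under limma voom (Nemf gained). In kidney RNA it was 0, and 0 to 2 with 1 library left out and 4 under limma voom. Limma voom also gave 3 in kidney TE and 1 in the RNA tissue difference, against 0. In brain RPF it was 0, and 1 without the filter (Nemf, 0.54, adjusted p = 0.0180). The cause was not tested. In WT tissues, Nemf mRNA passed in favour of brain under library size alone (-0.45, adjusted p = 0.0246) and with 1 transcript per gene (-0.42, adjusted p = 0.0135), and Nemf RPFs passed in favour of kidney with counts summed per gene (0.34, adjusted p = 0.0498). Zfp598 RPFs did not pass under DESeq2, library size alone, a minimum of 10 counts in every library or counts summed per gene (adjusted p 0.0610 to 0.113). In disomes against RPFs, Tcf25 passed with counts summed per gene (0.52, adjusted p = 0.00692), and Pelo under library size alone (-0.63, adjusted p = 0.0320) and without the filter (-0.67, adjusted p = 0.0134).

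Over all transcripts, kidney RPF calls ran from 285 to 5843 with 1 library left out and from 786 to 10106 otherwise, and kidney RNA calls, 7 in the comparison as reported, reached 12466 and 29361. KO and WT libraries of the same number did not deviate together in kidney RPF (r = -0.07 to 0.04), so they share only a number, and beside Ascc3 in kidney RPF and Pelo in WT disomes the replicate block changed no other member's call. It left 1 of the 3 further genes called in kidney RPF. The members had 5 to 185 disome reads each per library, which limits the precision of their disome values. A minimum of 10 counts in every library left Pelo and Hbs1l untested in all 3 disome comparisons.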

Other observations

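Most members have several coding transcripts, which share reads and are not independent. In kidney RPF, 11 of 13 transcripts of Gigyf2 passed the test, with log2 fold changes of 0.52 to 0.97, and both transcripts of Ltn1 did (0.35 to 0.52). Of Ascc3, 1 of 3 transcripts passed (0.13 to 0.42), and of Nemf 0 of 3 (0.11 to 0.40). No transcript of the other 6 members passed. In brain RPF the Gigyf2 transcripts ran from 0.20 to 0.74 and those of Nemf from 0.41 to 0.51, and 0 passed.

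Nemf mRNA was high in KO replicates 2 and 3 and at the WT level in KO replicate 1, in kidney and in brain alike. The mitochondrial rRNA share of the RNA-seq libraries was also lower in KO replicate 1 than in KO replicates 2 and 3 in both tissues. Its part in the Nemf values was not tested. The labels do not tie a replicate number to an animal across tissues.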
